A study of Homo sapiens with 6 samples.

Results

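The adhesion G protein-coupled receptors were the 32 human genes whose symbols carry the ADGR or CELSR root, and the rule that picks them uses the symbol alone. The family itself was chosen for study with earlier results of these data known. Each symbol mapped to 1 Ensembl identifier, so the family made up 32 of the 60617 genes counted in each tumor. RNA sequencing had been done on 6 xenograft tumors of the human melanoma cell line WM983-B, grown in a host that the labels do not describe. Of these, 3 tumors came under systemic treatment with anle138b and 3 were untreated. The compound is a diphenyl-pyrazole small molecule that acts on oligomers of α-synuclein, per the series' design text. The labels gave no dose, duration, host strain or animal for any tumor, so p-values here measure the spread between these 6 samples, which may be technical in part. A single cell line stood behind all tumors, which limits both groups as a model.

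The sample titles fell into 2 naming sets. Replicate 3 of each group had 1 style of title (the 2-library set), and replicates 1 and 2 of each group had another (the 4-library set). What the sets stand for was not labelled. Total counts per tumor were 27599159 and 22768826 in the 2-library set and 12400782 to 15865560 in the 4-library set. The 2-library tumors stood apart in many genes, so the members named for a treatment difference are also given for the 4-library set alone. Melanocyte genes were abundant in every tumor, with PMEL, a melanosome structural protein, at 8281 to 13444 CPM (counts relative to the TMM-scaled library size).

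Adhesion receptors join a long extracellular region, built of adhesion modules such as cadherin, laminin or immunoglobulin-like domains, to a membrane-spanning part that couples to G proteins. Most cleave themselves within a conserved domain next to the membrane, and the stub left on the membrane side can act as a tethered agonist. In melanoma the best-studied member is ADGRG1, a receptor for transglutaminase and collagen that has been linked to slower tumor growth and spread in mouse xenografts. ADGRV1, the giant member of the family, is known from the inner ear and retina, where its loss causes Usher syndrome.

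The sequences just before the RefSeq starts of 5 members are printed because these genes, with ADGRL1, were the 6 whose level differed between the naming sets, and ADGRV1 was also the 1 that differed with treatment. RefSeq promoter windows (GRCh38.p14) were found for 21 of the 32 members. For this display each window is cut where an annotated untranslated region begins. ADGRV1 (chr5:90558547-90558796, plus strand), ADGRB3 (chr6:68635032-68635281, plus strand) and ADGRG2 (chrX:19122638-19122718, minus strand) were higher in the 2-library set. ADGRG1 (chr16:57619488-57619692, plus strand) and CELSR3 (chr3:48662916-48663136, minus strand) were lower in it. GENCODE starts ADGRV1 and ADGRG1 further upstream, at 90529344 and 57610652, so their windows lie inside those longer gene models. All run 5′ to 3′ along the gene, and capitals mark letters of the 4 motifs searched.
ADGRV1: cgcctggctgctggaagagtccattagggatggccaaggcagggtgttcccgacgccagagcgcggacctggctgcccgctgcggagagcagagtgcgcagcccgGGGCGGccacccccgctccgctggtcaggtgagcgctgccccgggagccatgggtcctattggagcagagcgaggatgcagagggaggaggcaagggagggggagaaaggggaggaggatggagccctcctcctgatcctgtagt
ADGRB3: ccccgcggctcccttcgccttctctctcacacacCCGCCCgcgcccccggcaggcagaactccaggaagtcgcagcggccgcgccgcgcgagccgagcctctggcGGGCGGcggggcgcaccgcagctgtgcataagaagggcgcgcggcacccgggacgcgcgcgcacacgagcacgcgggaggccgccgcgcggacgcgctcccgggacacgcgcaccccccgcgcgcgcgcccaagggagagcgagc
ADGRG2: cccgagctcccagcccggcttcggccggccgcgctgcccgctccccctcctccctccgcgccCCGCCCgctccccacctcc
ADGRG1: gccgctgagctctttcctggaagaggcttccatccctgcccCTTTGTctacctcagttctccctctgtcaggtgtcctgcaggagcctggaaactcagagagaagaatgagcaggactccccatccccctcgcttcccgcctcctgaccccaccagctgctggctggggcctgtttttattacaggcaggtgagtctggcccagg
CELSR3: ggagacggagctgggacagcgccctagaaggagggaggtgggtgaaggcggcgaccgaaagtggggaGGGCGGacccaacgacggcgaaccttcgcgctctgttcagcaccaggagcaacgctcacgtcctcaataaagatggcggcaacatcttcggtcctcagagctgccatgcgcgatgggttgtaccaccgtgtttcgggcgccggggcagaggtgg
The motifs were the GC box GGGCGG, the SOX core ACAAAG and the E-boxes CACGTG and CATGTG, each read on both strands in the whole 250 bases before the start. None of the 4 contains another. The GC box stood in the windows of ADGRV1, ADGRB3, ADGRG2 and CELSR3, in 13 of the 21 members and in 42.6% of 35097 promoters. The window of ADGRG1 held no GC box but a SOX core, printed above as its reverse complement. That core occurred in 4 of the 21 members (ADGRG1, ADGRG7, ADGRL2 and ADGRL3) and in 13.7% of promoters. CACGTG was in no member's window, against 6.34% of promoters, and CATGTG was in that of ADGRF5, against 9.41%. Median GC content was 68% over the windows of 9 expressed members and 49.6% over those of 12 members not expressed, against 58% over all promoters. The ranges of the 2 groups overlapped widely, at 40.4% to 79.2% and 42% to 84.8%. A link between GC content and expression was not tested. A match here describes letters and not a bound site.

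Most of the family was present at some level, and 15 members were expressed, defined as at least 1 CPM in all 6 tumors. They were ADGRG1, ADGRG6, the latrophilins ADGRL1, ADGRL2 and ADGRL3, ADGRA2 and ADGRA3, ADGRB1 and ADGRB3, the leukocyte-type receptors ADGRE2 and ADGRE5, ADGRV1 and all of CELSR1, CELSR2 and CELSR3. With a minimum of 0.5 CPM the number was 18, and with 1 CPM in any 3 tumors it was also 18, adding ADGRD1, ADGRF5 and ADGRG2 each time. At least 3 counts were seen in all tumors for 22 members, in some tumors for 7 and in no tumor for 3 (ADGRA1, ADGRD2 and ADGRE3). No member lacked counts altogether. The level that 3 counts stand for was 0.106 to 0.24 CPM across tumors and covers counting error only. A low-count filter left 21 members among 20423 genes for testing. These were the 15 expressed ones together with ADGRD1, ADGRE1, ADGRF5, ADGRG2, ADGRG3 and ADGRL4. Of the 11 not tested, 9 never passed 9 counts in a tumor, and ADGRB2 and ADGRF3 reached at most 96 and 27 counts.

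Levels between genes are compared per kilobase of exon (CPM divided by the summed length of a gene's exons). ADGRG1 stood first at a mean of 36.2 over the 6 tumors, with a range of 23.7 to 50.7. ADGRL2, a latrophilin that binds teneurins and FLRT proteins, followed at 19.8 (17 to 21.1). ADGRA3, tied to planar cell polarity in zebrafish, averaged 12.9 (11.7 to 14.5), and its range overlapped that of ADGRG6 at 11.2 (9.87 to 14.1). ADGRG6 is required for Schwann cells to myelinate in mice and zebrafish. ADGRE5, known as CD97, the receptor of CD55, averaged 7.59 (7.16 to 8.64). ADGRG1, ADGRL2, ADGRG6 and ADGRE5 each had a range that lay clear of the next member in the order. From CELSR2 (4.63, from 3.59 to 6.36) and CELSR1 (4.15, from 3.54 to 5.07) downwards, the range of each expressed member overlapped that of its next neighbour. ADGRL1 averaged 3.16, ADGRB3 1.55, ADGRA2 1.39 and ADGRV1 1.21. ADGRV1 ranged from 0.183 in anle138b replicate 1 to 4.61 in untreated replicate 3. CELSR3 averaged 0.642, ADGRE2 0.503, ADGRB1 0.301 and ADGRL3 0.236 on this per-kilobase scale. The exons of ADGRV1 span 33822 bases, and its mean ranked 7 of 32 by CPM and 11 of 32 per kilobase. These places rest on untreated replicate 3, without which its mean per kilobase was 0.534 and its ranks were 9 and 12. In single tumors it ranked from 3 (untreated replicate 3) to 12 (anle138b replicates 1 and 2) by CPM.

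**Figure D1:**
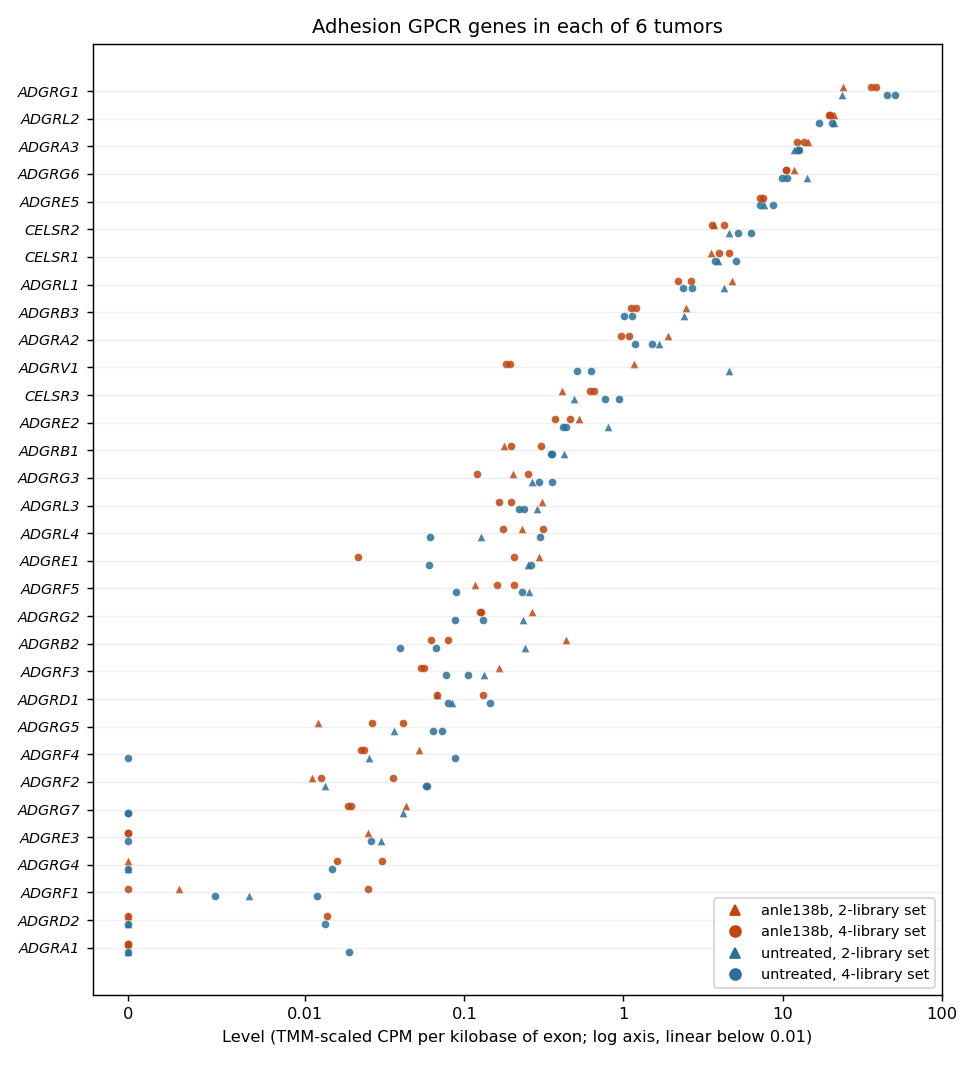
Level of each of the 32 adhesion receptor genes in each of 6 tumors, as TMM-scaled CPM per kilobase of exon on an axis that is logarithmic above 0.01. Each mark is 1 tumor, with triangles for the 2-library set and circles for the 4-library set; ADGRG1 is highest at a mean of 36.2, and ADGRV1 is spread from 0.183 to 4.61.

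The family as a whole took a small and narrow share of counts. Its members summed to 909, 876 and 871 CPM in the anle138b tumors and to 965, 1075 and 997 CPM in the untreated tumors, so the groups did not overlap. Without ADGRV1 the sums were 902, 869 and 832 CPM in the anle138b tumors and 948, 1053 and 841 CPM in the untreated tumors, which overlapped. The full family took 0.0856%, 0.0884% and 0.0892% of all counts under anle138b and 0.0999%, 0.1% and 0.103% without treatment. Within the family, ADGRG1 supplied 36.7%, 35.3% and 23.7% of the counts in the anle138b tumors and 40.4%, 40.8% and 20.6% in the untreated tumors. ADGRV1 supplied 0.682%, 0.748% and 4.5% in the anle138b tumors, against 1.78%, 1.96% and 15.6% in the untreated tumors. In untreated replicate 3 the share of ADGRV1 came near that of ADGRG1. These shares are not scaled for exon length. Per kilobase of exon, that tumor had 4.61 for ADGRV1 and 23.7 for ADGRG1.

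**Figure D2:**
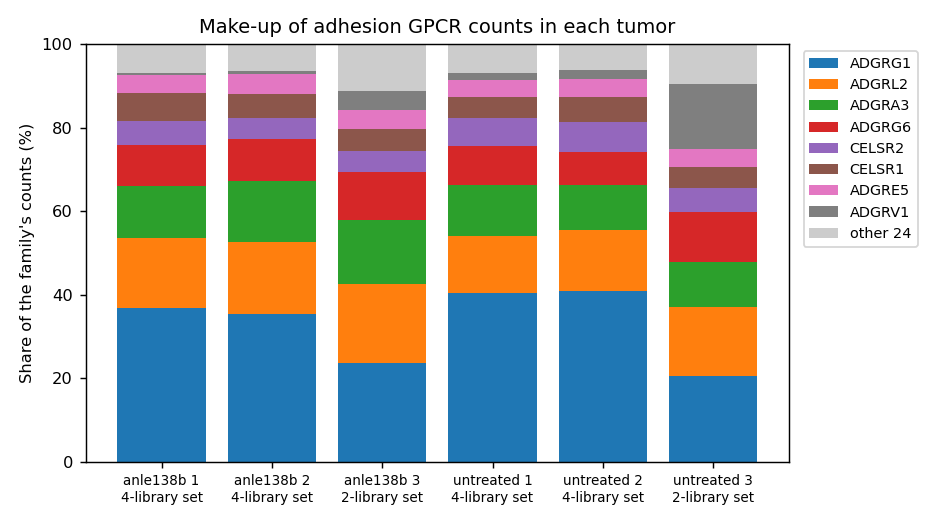
Share of the family's counts, in percent, taken by the 8 most abundant members and by the other 24 in each of 6 tumors. Shares are not scaled for exon length. The bars of anle138b 3 and untreated 3, the 2-library set, have the smallest ADGRG1 segments (23.7% and 20.6%) and the largest ADGRV1 segments (4.5% and 15.6%).

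Under anle138b, ADGRV1 was lower, and it was the 1 of 21 tested members that passed an adjusted p of 0.05. In the same fit 1.05% of all tested genes passed in either direction, 0.656% as higher and 0.397% as lower. DESeq2 also called ADGRV1 alone among the members, and 2.02% of genes. ADGRV1 (plus strand of chromosome 5, 90529344 to 91164437 on GRCh38) encodes the largest receptor of the family, with many calcium-binding repeats, and forms the ankle links between hair-cell stereocilia. It had 81, 82 and 1108 counts in the anle138b tumors and 282, 285 and 3675 counts in the untreated tumors. Scaled for depth, these were 6.19, 6.55 and 39.2 CPM under anle138b and 17.2, 21.1 and 155.9 CPM without treatment. Each treated tumor lay below the untreated tumors of its own set, although treated replicate 3 lay above untreated replicates 1 and 2. The group means with their SD were 17.3 ± 19 CPM for anle138b and 64.7 ± 79 CPM for untreated tumors (n = 3 each), which the difference between sets widens.

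With the naming set in the model, the log2 difference of ADGRV1 was -1.76 ± 0.14 (SE; 95% interval -2.07 to -1.45; adjusted p = 0.000467, edgeR quasi-likelihood test). It ranked 13 among the lowest log2 differences of the 20423 genes. Within the 4-library set the difference between the groups in mean log2 CPM was -1.56. Within the 2-library set, with 1 tumor per group, the difference in log2 CPM was -1.99. A fit of the 4-library set alone gave -1.58 ± 0.18 with an adjusted p of 0.00463 by edgeR, when 0.457% of genes passed. Without the set term the estimate was -1.87, but the adjusted p rose to 1 and 0.0441% of genes passed, all of them higher. Leaving out any 1 tumor kept the log2 difference between -1.84 and -1.57, with an adjusted p of at most 0.00301 by edgeR. With either 2-library tumor left out, the set term takes up the remaining one. Those fits (-1.58 and -1.57) thus draw the treatment difference from the 4-library tumors alone and are no separate check.

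The library kit does not mark strand, so overlap with neighbouring genes was read from the annotation. LYSMD3 on the opposite strand shares 68 bases with the exons of ADGRV1, 0.201% of them, and its own log2 difference was -0.02 (adjusted p = 0.992, edgeR). LUCAT1, a long noncoding RNA that lies inside ADGRV1 on the opposite strand without shared exon bases, had a log2 difference of -0.23 (adjusted p = 0.912, edgeR).

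The CELSR genes encode the vertebrate counterparts of fly Flamingo, cadherin-type receptors of planar cell polarity and axon guidance. CELSR2 had 53.2, 44.3 and 45.6 CPM in the anle138b tumors, against 64.4, 78.5 and 57 CPM in the untreated tumors. All 3 treated values lay below all 3 untreated values. The log2 difference was -0.47 ± 0.12 (interval -0.74 to -0.20), and it did not pass with an adjusted p of 0.145 by edgeR. It passed in 1 of 16 alternatives, the fit with no low-count filter (2 members called, and 1.62% of genes). In the 4-library set alone the log2 difference was -0.55 (adjusted p = 0.19, edgeR). CELSR3 had 8.49, 9.03 and 5.7 CPM under anle138b, against 12.9, 10.6 and 6.75 CPM without treatment. Its treated values were lower within each set but overlapped across sets, with a log2 difference of -0.36 ± 0.16 (adjusted p = 0.551, edgeR), and -0.43 in the 4-library set alone (adjusted p = 0.583). CELSR1 had 59.3, 50.9 and 45.3 CPM under anle138b, against 48.3, 64.9 and 50.1 CPM without treatment. Its groups overlapped, with a log2 difference of -0.07 and an interval of -0.36 to 0.21.

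ADGRB1, a receptor of the brain-specific angiogenesis inhibitor type that recognizes phosphatidylserine on dying cells, was low throughout. It had 29, 18 and 37 counts in the anle138b tumors, against 43, 35 and 73 counts in the untreated tumors. As CPM these were 2.22, 1.44 and 1.31 under anle138b and 2.62, 2.59 and 3.1 without treatment, so the groups did not overlap. The log2 difference of -0.79 ± 0.27 did not pass (adjusted p = 0.351, edgeR), nor did the -0.51 of the 4-library set alone (adjusted p = 0.807). ADGRG3, a receptor of neutrophils, had only 11, 5 and 19 counts under anle138b and 16, 16 and 21 counts without treatment. Its log2 difference was -0.62 ± 0.35, with an adjusted p of 0.749 by edgeR, and -0.78 in the 4-library set alone (adjusted p = 0.793).

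Treated tumors lay below untreated tumors within both sets for 5 of the 21 tested members (ADGRV1, CELSR2, CELSR3, ADGRB1 and ADGRG3), when 10.4% of all tested genes did so. They lay above in both sets for 0 members, against 9.52% of genes. All treated tumors were below all untreated tumors for 3 members (CELSR2, ADGRB1 and ADGRG3), against 4.47% of genes, and above for 0, against 4.03%. Over the 21 members the median log2 difference was -0.16, with 15 below 0 and 6 above, beside a median of -0.01 over all genes with 52.1% below 0. An unadjusted p under 0.05 was reached by 4 members (ADGRV1, CELSR2, ADGRB1 and CELSR3), against 8.49% of genes.

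**Figure D3:**
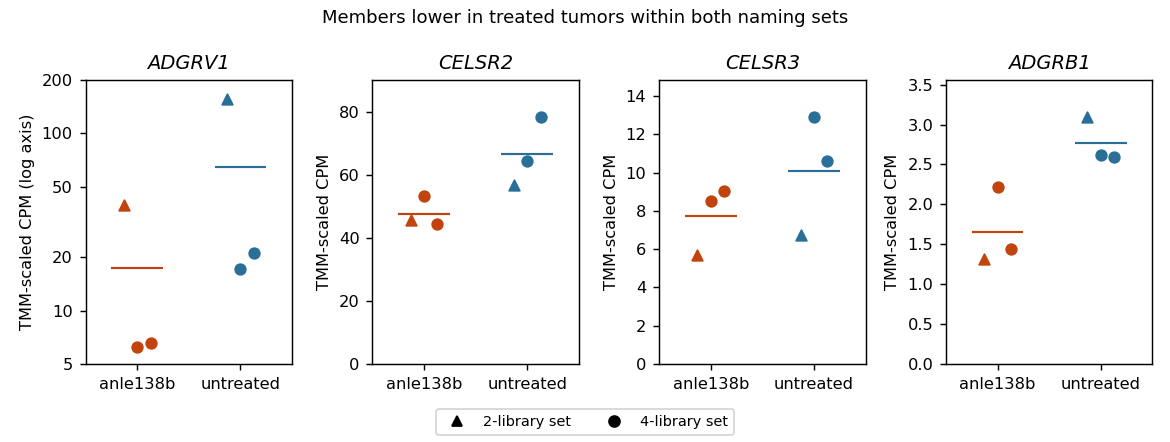
TMM-scaled CPM of ADGRV1 (log axis), CELSR2, CELSR3 and ADGRB1 in the 3 anle138b and 3 untreated tumors, with the arithmetic mean of each group as a bar. Triangles are the 2-library set and circles the 4-library set; within each set every treated tumor is below the untreated ones, and ADGRV1 alone passed the adjusted test.

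Among the abundant members other than the CELSR genes, 5 had intervals that included 0. ADGRG1 had 334, 309 and 207 CPM in the anle138b tumors, against 389.9, 439 and 205 CPM in the untreated tumors. The treated tumors of the 4-library set were lower than their untreated counterparts, while the 2-library tumors were nearly equal. The log2 difference was -0.24 ± 0.11 (interval -0.50 to 0.02; adjusted p = 0.638, edgeR), and -0.36 in the 4-library set alone (adjusted p = 0.419). ADGRL2 had 153, 152 and 163 CPM under anle138b, against 132, 157 and 164 CPM without treatment, and an interval of -0.18 to 0.27. ADGRA3 had 113, 127 and 134 CPM under anle138b, against 117, 116 and 108 CPM without treatment, and an interval of -0.09 to 0.36. Both genes overlapped between the groups. ADGRG6 had 88.9, 88.9 and 99.2 CPM under anle138b, against 90.4, 83.6 and 119.8 CPM without treatment, with an interval of -0.30 to 0.15. ADGRE5 had 38.8, 40.3 and 39.8 CPM under anle138b, against 38.5, 46.5 and 41.4 CPM without treatment, with an interval of -0.33 to 0.15. None of these 5 intervals reached beyond -0.50 or 0.36.

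The remaining tested members did not pass either. ADGRL1 had a log2 difference of 0.02 (interval -0.26 to 0.30), ADGRB3 of 0.09 (-0.23 to 0.41), ADGRA2 of -0.17 (-0.58 to 0.24), ADGRE2 of -0.27 (-0.74 to 0.20) and ADGRL3 of -0.16 (-0.63 to 0.32). For the low members the data said little. ADGRL4, an endothelial receptor, had 15, 8 and 24 counts under anle138b, against 18, 3 and 11 counts without treatment, and an interval of -0.54 to 1.66. ADGRE1, ADGRF5, ADGRD1 and ADGRG2 had log2 differences between -0.37 and 0.19 with standard errors of 0.26 to 0.58. Exons of ADGRA2 share 23.1% of their bases with BRF2 and those of ADGRE2 share 15.7% with ZNF333, both on the opposite strand. Their counts may therefore include reads of the partner or lack reads of the shared bases, depending on counting settings that are not stated. ADGRE2 and ADGRE5 also have near-identical stretches in their EGF-like repeats, and how such reads were split in counting is not stated by the labels.

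**Figure D4:**
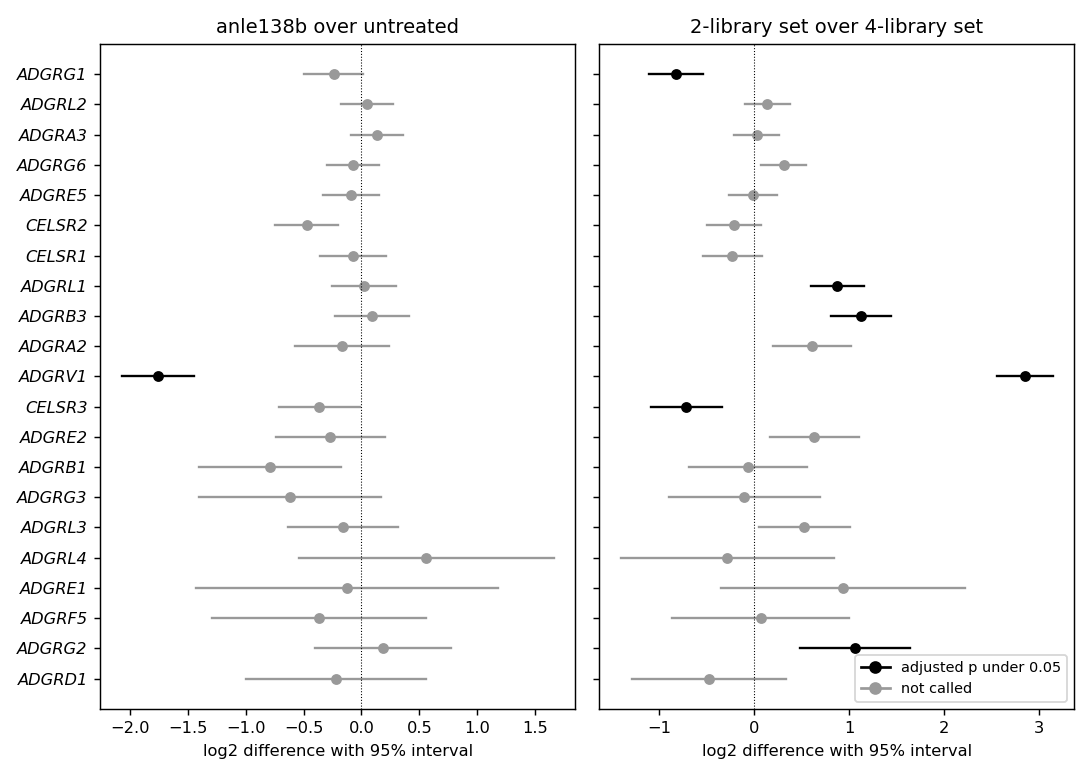
Log2 differences with 95% intervals for the 21 tested members from 1 edgeR fit, anle138b over untreated on the left and the 2-library over the 4-library set on the right; black marks passed an adjusted p of 0.05. ADGRV1 is the single black mark on the left at -1.76, and 6 members are black on the right, from -0.82 for ADGRG1 to 2.85 for ADGRV1.

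Between the naming sets more of the family differed. In the 2-library set 4 members were higher (ADGRV1, ADGRB3, ADGRG2 and ADGRL1) and 2 were lower (ADGRG1 and CELSR3), which is 6 of 21, when 15.5% of all tested genes passed. By direction, 8.32% of genes were higher and 7.14% lower. ADGRV1 had 39.2 and 155.9 CPM in the 2-library tumors, treated and untreated, against 6.19 to 21.1 CPM in the 4-library tumors. Its log2 difference between sets was 2.85 ± 0.13 (adjusted p = 3.14e-06, edgeR), with 2.60 among the anle138b tumors and 3.03 among the untreated ones. LYSMD3 and LUCAT1 differed between sets by 0.42 and -0.93 (adjusted p = 0.0366 and 0.0281, edgeR). Both 2-library tumors were above the other 4 for 9 members, against 19% of genes, and below for 2, against 19.4%.

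ADGRB3, a synaptic receptor of C1q-like proteins, had 16 and 15.6 CPM in the 2-library tumors, against 6.52 to 7.83 CPM in the 4-library tumors. Its log2 difference was 1.13 ± 0.14 (adjusted p = 0.000948, edgeR). ADGRL1, the latrophilin first found as a receptor of spider venom latrotoxin, had 40.6 and 36.5 CPM in the 2-library tumors, against 18.6 to 22.9 CPM in the others, a log2 difference of 0.88 ± 0.13 (adjusted p = 0.002, edgeR). In both genes the 2 sets did not overlap, while the treatment groups did. ADGRG2, an epididymal receptor needed for male fertility, had 76 and 56 counts in the 2-library tumors and 12 to 22 in the others. Its log2 difference of 1.06 ± 0.26 (adjusted p = 0.0249, edgeR) was lost with DESeq2 (adjusted p = 0.0607) and without anle138b replicate 1, anle138b replicate 3, untreated replicate 2 or untreated replicate 3, with an adjusted p of up to 0.203.

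ADGRG1 ran the other way, with 207 and 205 CPM in the 2-library tumors and 309 to 439 CPM in the 4-library tumors. Its log2 difference between sets was -0.82 ± 0.13 (adjusted p = 0.00288, edgeR). It was called in all 16 alternatives run for this comparison, as were ADGRV1, ADGRB3 and ADGRL1. CELSR3 had 5.7 and 6.75 CPM in the 2-library tumors, against 8.49 to 12.9 CPM in the others, a log2 difference of -0.71 ± 0.17 (adjusted p = 0.0218, edgeR). That call was lost without untreated replicate 1 (adjusted p = 0.0572) and without untreated replicate 3 (adjusted p = 0.222).

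Near the threshold lay ADGRA2, with 13.4 and 11.8 CPM in the 2-library tumors and 6.79 to 10.7 CPM in the others (log2 difference 0.61 ± 0.18, adjusted p = 0.0521, edgeR), which passed in 11 of 16 alternatives. ADGRB2, the remaining receptor of the ADGRB subfamily, had 96 and 44 counts in the 2-library tumors and 5 to 8 counts in the others. The low-count filter had removed it. Its values are given as a description, with no test. With no low-count filter 10 of 32 members passed, when 13.4% of genes did. That count includes ADGRB2, whose call is not used.

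Cell-type genes also moved with the sets. Summed over a list of 7 Schwann cell genes, 6 of them tested and 0 called by treatment, levels were 1337 and 1470 CPM in the 2-library tumors and 1022 to 1076 CPM in the 4-library tumors, with GFRA3 under 3 counts in every tumor. A list of 10 fibroblast and pericyte genes summed to 883 and 564 CPM in the 2-library tumors, against 481 to 543 CPM in the 4-library tumors. Without CSPG4, which melanoma cells also express, the sums were 607 and 378 CPM in the 2-library tumors. These overlapped the 332 to 406 CPM of the 4-library tumors. Without LUM instead, the sums were 660 and 451 CPM in the 2-library tumors, against 301 to 348 CPM, which did not overlap. COL1A1 and COL1A2 were higher in the 2-library set (adjusted p = 0.0123 and 0.0316, edgeR). LUM and FAP did not pass between the sets (adjusted p = 0.436 and 0.384, edgeR). A list of 8 skeletal muscle genes summed to 27 and 29.5 CPM in the 2-library tumors, against 54.6 to 109 CPM in the 4-library tumors. MYH1, MYH2 and MYH4 were lower in the 2-library set (adjusted p of 0.00132 to 0.00563, edgeR). ACTA1 and DES did not pass (adjusted p = 0.678 and 0.993, edgeR). The 109 CPM was that of anle138b replicate 2, which had 131 counts of CKM, against 1 to 11 in the other tumors. The part of these differences in the set results was not tested. In bulk tumors, fewer cells of a type and less RNA per cell cannot be told apart.

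By treatment, the 13 myeloid genes summed to 34.5 to 55.1 CPM under anle138b and 28.4 to 51.5 CPM without treatment, with FCGR3A and C1QA under 3 counts in every tumor. The 10 endothelial genes summed to 32.3 to 33.1 CPM under anle138b and 36.7 to 44 CPM without treatment, which did not overlap, and 0 of the 6 tested passed. Without TIE1 the sums were 10.8, 11.8 and 19.9 CPM under anle138b and 12.8, 9.41 and 17.6 CPM without treatment, which overlapped. The 9 lymphocyte genes summed to 7.01 to 9.48 CPM under anle138b and 9.62 to 10.4 CPM without treatment, with CD3D at 0 and CD2, CD4, CD8A and NKG7 under 3 counts in every tumor. Nearly all of this was GZMB, at 6.26 to 9.1 CPM under anle138b and 8.44 to 9.85 CPM without treatment (adjusted p = 0.829, edgeR), and the other 8 summed to at most 1.74 CPM. The part of these shifts in the ADGRV1 result was not tested. Fibroblast and pericyte genes summed to 502 to 883 CPM under anle138b and 481 to 564 CPM without treatment, with LUM, a matrix proteoglycan, the 1 of 10 called (log2 difference 0.70, adjusted p = 0.0249, edgeR; 0.56 in the 4-library set alone, adjusted p = 0.117).

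The test of whether the treatment difference itself differed between sets found 0 members and 0 of 20423 genes past an adjusted p of 0.05 with edgeR. At an unadjusted p under 0.05 there were 0 members and 6.59% of genes. DESeq2 called 31 genes and 0 members, and limma called 0 members. For ADGRV1 the interaction was -0.41 ± 0.25 on the log2 scale (adjusted p = 0.786, edgeR).

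Of 76 genes listed as partners of these receptors, 64 were tested and 2 passed by treatment, which is 3.12%, beside 1.05% of all tested genes. Of 26 extracellular ligands and partners, 21 were tested, and 0 rose or fell with treatment, with a median log2 difference of -0.09. NRXN3, a neurexin that binds latrophilins, had a log2 difference of -0.71 (adjusted p = 0.147, edgeR), and FLRT3, a latrophilin ligand, of 0.36 (adjusted p = 0.326). Between the sets 8 of these 21 were higher and 1 lower, when 8.32% and 7.14% of all tested genes were. TENM1, at 3.48, and FLRT2, at 2.18, were among the higher ones. TENM1, a teneurin ligand of latrophilins, had 258 and 275 counts in the 2-library tumors and 12 or 13 counts in each of the other 4. In the partner lists below, the direction between sets varied. Of 18 tested G proteins, arrestins and exchange factors 3 were higher and 2 lower, and of 14 planar polarity partners 1 was higher and 4 lower. Of 7 ankle link partners 2 were higher and 1 lower, and of 4 Wnt7 partners 1 was higher and 0 lower.

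Of 20 G proteins, arrestins and exchange factors, 18 were tested, 1 rose and 0 fell under anle138b, with a median of 0.04. The gene that rose was GNAI1, an inhibitory G protein subunit, with 26, 24.5 and 36.8 CPM in the anle138b tumors, against 15.5, 17.9 and 17.5 CPM in the untreated tumors. All treated values were above all untreated values, with a log2 difference of 0.77 ± 0.14 (adjusted p = 0.0325, edgeR). The call was lost in a fit with no set term and in a fit of the 4-library tumors (0.60 ± 0.14, adjusted p = 0.157), as well as without replicate 1 or replicate 3 of either group, with an adjusted p of up to 0.424. ELMO1, which passes signals of ADGRB1 to Rac, had a log2 difference of 0.61 (adjusted p = 0.351, edgeR).

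Of 9 ankle link partners of ADGRV1, 7 were tested, 0 rose and 1 fell, with a median of -0.05. The gene that fell was WHRN, whose product whirlin binds ADGRV1 in stereocilia and photoreceptors. It had 30.6, 30 and 19.4 CPM in the anle138b tumors, against 40.9, 43.9 and 29.5 CPM in the untreated tumors, and treated values were lower within each set. The log2 difference was -0.52 ± 0.10 (adjusted p = 0.049, edgeR), and the call was lost in 8 of 16 alternatives, among them the 4-library set alone and leaving out anle138b replicate 1 or 3 or any untreated replicate, with an adjusted p of up to 0.253 where a set term could be kept. MYO7A, a motor protein of the same complex, had a log2 difference of -0.34 (adjusted p = 0.85, edgeR).

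Of 15 planar polarity partners of the CELSR receptors, 14 were tested and 0 passed, with a median of -0.12. The smallest p-values were those of the cytoplasmic Dishevelled genes DVL3 (-0.17, adjusted p = 0.73, edgeR) and DVL1 (-0.32, adjusted p = 0.788). Of 6 partners of ADGRA2 in Wnt7 signalling, 4 were tested and 0 passed, with a median of -0.09. LRP6, a Wnt co-receptor, had a log2 difference of -0.10 (adjusted p = 0.93, edgeR), and FZD4, a Wnt receptor, also of -0.10 (adjusted p = 0.961). The ligands WNT7A and WNT7B reached at most 1 and 4 counts in a tumor.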

How the data were processed

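Per the labels, TRIzol RNA went into libraries of the TruSeq v2 kit. The authors deposited 1 table of raw counts per gene for each of the 6 tumors. The submitters' processing notes name bcl2fastq 2.17.1.14, STAR 2.5.2a, featureCounts 1.5.0-p1 and hg38. The annotation release, strand setting and handling of multiply mapped reads or reads of the host are not stated in them. Host reads that map to human genes could add to any count.

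Of 60617 identifiers, 58542 were in GENCODE 29 (GRCh38), which gave positions and exon lengths, and 0 rows named no gene. All 175 list genes matched, the 32 members among them. Membership follows the symbols, but the family, the gene lists and the marker lists were chosen for study with earlier results of these data known. All members are accounted for; of each partner list, called genes and otherwise up to 2 with the smallest p are named. TENM1, FLRT2, single marker genes and genes in overlap with members were named after their values were seen.

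The counts were fitted in edgeR 4.0.16 under R 4.3.3 (TMM scaling, filterByExpr by group with a minimum count of 10 and total of 15, glmQLFit and glmQLFTest). Terms were treatment and naming set, with 3 residual degrees of freedom for the samples and 2 with the interaction. Benjamini-Hochberg adjustment ran over 20423 genes at a threshold of 0.05. Log2 differences are anle138b over untreated, or 2-library over 4-library set. Standard errors come from the F statistic. The biological coefficient of variation was 12.8%. Replicate pairs differed beyond sampling noise (chi-square per degree of freedom 8.97 to 49.7), so each tumor counted once. Replicate numbers follow listing order and pair no tumors. Alternatives used other scalings and filters, no set term, DESeq2 1.42.0, limma 3.58.1, only protein-coding genes, only the 4-library tumors, and each tumor left out.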

Additional observations from a re-analysis of the deposited data

How the results depend on the processing

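The counts of members called were 1 for treatment and 6 for the naming set. For treatment the count was 0 without the set term and 2 without the low-count filter, which added CELSR2 (adjusted p = 0.00937, edgeR). It stayed at 1, ADGRV1, in the other 14 alternatives. For the naming set it was 10 without the filter and 5 to 8 in the other alternatives. ADGRB2 is counted there without the filter, with a filter by naming set, and without replicate 1 or 2 of either group. The set filter and those left-out fits kept ADGRB2 only through the 2-library tumors, where it was high. Its call is not used in any of them. Partner genes called by treatment numbered 2, against 0 without the set term, 1 with DESeq2 size factors, 4 without the filter, 0 in the 4-library set alone and 0 to 2 when 1 tumor was left out.

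Over all genes, 215 were called by treatment, against 9 without the set term, 754 without the filter, 412 with DESeq2, 92 in the 4-library set alone and 89 to 392 with 1 tumor left out. The naming set called 3157, against 6250 without the filter and 993 to 5960 with 1 tumor left out. Its split was 1699 higher and 1458 lower, against 2244 and 1242 under library size alone. The interaction called 0, against 1 with upper-quartile scaling, 11 under library size alone, 262 without the filter, 31 with DESeq2 and 24 to 436 with 1 tumor left out. A filter by naming set, added after seeing the data, kept ADGRB2 only through the set where it was high, so its call there is not used. The cause of the changes above was not tested.

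Signs of uncalled members changed 15 times over 7 genes for treatment and 17 times over 6 genes for the set. The interaction could not be fitted without either 2-library tumor. No paired analysis was possible because the labels give the groups no shared replicate numbers. The 3 residual degrees of freedom and the low counts of the 11 members not tested limit what could be detected.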
